A study of Homo sapiens with 8 samples.

Results

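Chemokines are the small secreted proteins that attract leukocytes, and several of them belong to the secretory programme of stressed or senescent tumor cells. The mRNA levels of 9 chemokine genes were followed here, namely CXCL8, CXCL1, CXCL2, CXCL3, CXCL5, CXCL12, CXCL16, CCL2 and CCL20, taken from the count table by gene symbol. All 9 were among the 26364 genes listed, 7 had a count in at least 1 library, and 6 passed the filter on low counts that left 14201 genes for testing. The cells were LN229, an established human glioblastoma line that lacks the repair protein MGMT and therefore responds to the alkylating drug temozolomide (TMZ). Every group carried a stable survivin-GFP transgene under G418 selection. In the Surv-GFP clone the fusion protein had a functional nuclear export sequence (NES) and was mainly cytoplasmic, whereas in the SurvNESmut-GFP clone leucines of the NES were replaced by alanine and the protein was trapped in the nucleus. Each clone was sampled untreated and after 48 h with TMZ at 50 µM, which gave 4 groups of 2 libraries that carry the letters a and b. The study asked how the localization of survivin alters the response of glioblastoma cells to TMZ. Since each construct was represented by a single clone, the construct and the clone cannot be told apart.

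CXCL8 (interleukin-8), CXCL1, CXCL2, CXCL3 and CXCL5 carry the Glu-Leu-Arg motif before their first cysteines, bind the receptor CXCR2 (CXCL8 also binds CXCR1) and recruit neutrophils. CCL2 attracts monocytes through CCR2, CCL20 attracts lymphocytes and dendritic cells through CCR6, CXCL12 acts through CXCR4 and ACKR3, and CXCL16 is a membrane-anchored ligand of CXCR6 that the protease ADAM10 can shed. Transcription of the neutrophil-attracting group is classically driven by NF-kappaB together with C/EBP and AP-1 factors, and their mRNAs are turned over rapidly through AU-rich elements.

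The promoter sequences are shown because 5 of these genes share a short NF-kappaB-type site although their mRNA levels differed widely. RefSeq promoters on GRCh38.p14 were at hand for 7 of the 9 genes, and those of CCL2 and CXCL16 were not. Searched on both strands over the 250 bases before the start site were the kappaB motif GGANTTTCC, the C/EBP motif TTGCNNAA and the AP-1 motif TGANTCA. The last 150 bases before the start follow for the 5 neutrophil-attracting genes and CCL20, 5′ to 3′ on the strand of the gene, with kappaB and AP-1 matches in capitals, while CXCL12, without a match or a count, was searched but is not shown. The windows lie on chromosome 4 (CXCL8, plus strand, 73740419 to 73740568; CXCL1, plus strand, 73869243 to 73869392; CXCL2, minus strand, 74099196 to 74099345; CXCL3, minus strand, 74038690 to 74038839; CXCL5, minus strand, 73998678 to 73998827) and on chromosome 2 (CCL20, plus strand, 227813692 to 227813841).
CXCL8: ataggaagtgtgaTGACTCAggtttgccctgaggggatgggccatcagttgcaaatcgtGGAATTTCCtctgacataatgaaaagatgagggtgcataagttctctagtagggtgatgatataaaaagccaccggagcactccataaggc
CXCL1: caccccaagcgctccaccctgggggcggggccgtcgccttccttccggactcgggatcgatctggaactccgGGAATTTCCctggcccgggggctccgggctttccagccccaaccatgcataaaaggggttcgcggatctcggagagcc
CXCL2: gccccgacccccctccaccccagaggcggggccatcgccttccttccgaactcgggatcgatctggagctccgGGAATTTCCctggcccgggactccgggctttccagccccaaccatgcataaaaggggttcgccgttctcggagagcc
CXCL3: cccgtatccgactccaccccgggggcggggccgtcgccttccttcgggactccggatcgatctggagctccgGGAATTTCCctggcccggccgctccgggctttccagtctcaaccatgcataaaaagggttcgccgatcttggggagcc
CXCL5: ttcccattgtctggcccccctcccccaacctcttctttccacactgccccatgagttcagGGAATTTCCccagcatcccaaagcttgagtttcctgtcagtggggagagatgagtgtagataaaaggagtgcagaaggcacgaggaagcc
CCL20: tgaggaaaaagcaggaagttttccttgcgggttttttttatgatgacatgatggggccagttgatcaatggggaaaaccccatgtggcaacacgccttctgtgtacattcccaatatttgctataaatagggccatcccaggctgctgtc
The kappaB match stood at bases -91 to -83 in CXCL8, -78 to -70 in both CXCL1 and CXCL3, -77 to -69 in CXCL2 and -90 to -82 in CXCL5. In all 5 it read the same 9 letters, and no match was present in CCL20 or CXCL12. Of 35116 RefSeq promoters of the same length, 1.45% held a kappaB match. CXCL8 also held an AP-1 match at -137 to -131 (background 6.57%), and CXCL2 a C/EBP match at -188 to -181 on the opposite strand, outside the printed window (background 9.05%). The windows of CXCL1, CXCL2 and CXCL3 were near copies of each other, with 88 to 90% identical bases in pairwise alignment, whereas CXCL8 shared 53.3% with each of them. By the same alignment CXCL8 shared 59.3% with CCL20 and 49.3% with CXCL12, so 53.3% is no sign of likeness. A match describes the letters only, and binding was not measured. Sites that depart from these letters were not searched for, so the lack of a match does not show the lack of a site.

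**Figure D1:**
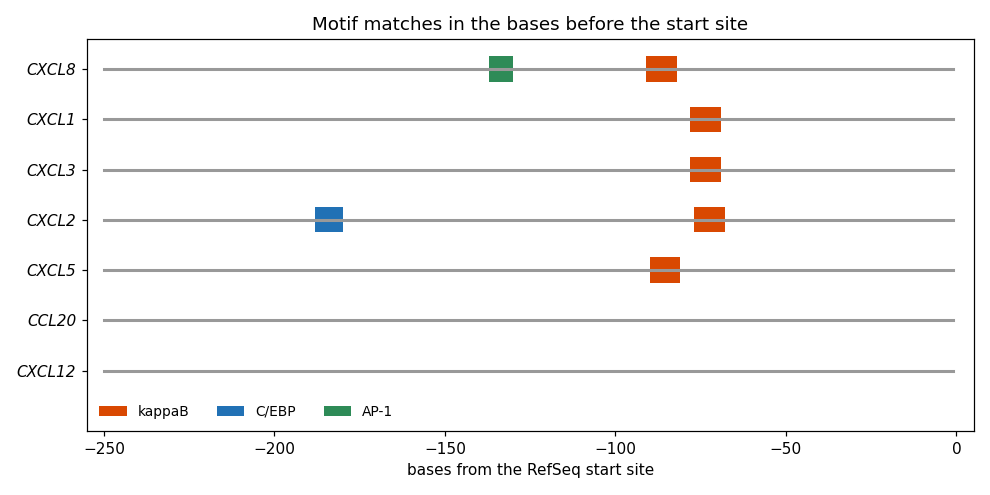
Motif matches in the 250 bases before the RefSeq start site, in bases from the start, for the 7 chemokine genes with a promoter sequence (orange, kappaB; blue, C/EBP; green, AP-1). The kappaB match lies between -91 and -69 in the 5 neutrophil-attracting genes, and CCL20 and CXCL12 have no match to the letters searched.

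The libraries held 15826923 to 18861603 counts on genes. Levels are given as CPM, which are counts scaled to a common library size with TMM factors. On this scale the 3 counts that a count of 0 allows correspond to 0.160 to 0.189 CPM, and such limits cover counting error only. The lettered libraries of a group differed by more than sampling noise, most of all in exposed SurvNESmut-GFP. There the chi-square per degree of freedom over genes was 5.49, against 2.14 to 2.58 in the other groups, while the tests pool the spread over all groups. The study describes its data as independent biological replicates that were each run in technical duplicate, without saying which of these the letters a and b stand for. The p-values therefore measure the spread between the letters, which may be technical. All 7 markers of glial and glioma cells had counts (3810 to 5982 CPM summed), while 8 leukocyte markers summed to 0.488 to 1.41 CPM and 5 endothelial markers to 0.535 to 0.975 CPM. Most of the glial sum was VIM (2347 to 3782 CPM), and GFAP had 0 to 17 counts per library and was not tested. Without TMZ the mean levels of S100B, SOX2, OLIG2 and VIM were lower in SurvNESmut-GFP (40.6, 34.4, 6.93 and 3003 CPM) than in Surv-GFP (777, 90.7, 34.0 and 3738 CPM). Those of NES and CD44 were higher in SurvNESmut-GFP (965 and 653 against 735 and 574 CPM). BIRC5, the survivin gene, stood at 1132 ± 27.9 and 1983 ± 64.6 CPM (SD, n = 2 in each group, here and for all levels and shares below, whereas errors of log2 changes are SE) without and with TMZ in Surv-GFP and at 411 ± 5.21 and 257 ± 6.89 CPM in SurvNESmut-GFP, the transgene and the endogenous gene being counted together.

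Upon TMZ, 4 of the 6 tested chemokine genes rose in the Surv-GFP clone (CXCL8, CXCL3, CCL20 and CXCL1) and none fell, against 30.1% of all tested genes called higher and 28.9% called lower. In the SurvNESmut-GFP clone 2 rose (CXCL8 and CXCL1) and 1 fell (CCL2), against a background of 18.6% higher and 19.1% lower. The TMZ effect itself was smaller in SurvNESmut-GFP for CXCL8, CXCL1, CXCL3 and CCL20 and larger for none, where 20.2% and 16.6% of all genes were called lower and higher. The clones already differed without TMZ, with CXCL8, CXCL1, CXCL3 and CCL2 higher in SurvNESmut-GFP and none lower (background 34.7% and 29.4%). Under TMZ the order was turned for CXCL8, CXCL1 and CXCL3, which together with CCL20 were lower in SurvNESmut-GFP, leaving CCL2 as the only one higher (background 34.7% lower and 34.5% higher). The median log2 fold change of the 6 genes was 2.2 upon TMZ in Surv-GFP and -0.02 in SurvNESmut-GFP, beside 0.00 for all genes in both. A gene was called where the adjusted p of edgeR's quasi-likelihood F test, corrected by Benjamini-Hochberg over all 14201 genes, was under 0.05. In bulk RNA a change in the share of expressing cells and a change of RNA per cell cannot be told apart.

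CXCL8 had the largest TMZ effect of the 6. Without TMZ the Surv-GFP clone had 222 and 175 counts, equal to 12.0 and 9.65 CPM. Upon TMZ it had 5708 and 4987 counts, equal to 305 and 286 CPM. In SurvNESmut-GFP the untreated libraries were at 55.2 and 58.5 CPM and the exposed ones at 86.2 and 96.5 CPM. No 2 groups overlapped, and the order from low to high was untreated Surv-GFP, untreated SurvNESmut-GFP, exposed SurvNESmut-GFP and exposed Surv-GFP. The rise in Surv-GFP was 27.2-fold (log2 4.77 ± 0.08 SE, edgeR adjusted p = 2.3e-16), the 6th smallest p of all genes tested. In SurvNESmut-GFP the rise was 1.61-fold (log2 0.68 ± 0.07, edgeR adjusted p = 1.4e-06). The difference of these effects was -4.08 ± 0.11 on the log2 scale (edgeR adjusted p = 3.9e-13), the 4th smallest p in that test, with a 95% interval of -4.32 to -3.84. Between the clones CXCL8 was 5.24-fold higher in SurvNESmut-GFP without TMZ (edgeR adjusted p = 1.8e-12) and 3.24-fold lower with TMZ (edgeR adjusted p = 1.7e-12).

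CXCL1 (GRO-alpha), the closest relative of CXCL2 and CXCL3, followed the same order of groups with smaller steps. Its untreated Surv-GFP libraries were at 15.8 and 13.6 CPM and its exposed ones at 56.7 and 49.5 CPM. In SurvNESmut-GFP the values were 31.1 and 32.1 CPM without and 34.9 and 40.5 CPM with TMZ. The groups did not overlap, but the gap between the SurvNESmut-GFP groups was narrower than the spread of the exposed pair. CXCL1 rose 3.62-fold in Surv-GFP (log2 1.86 ± 0.10, edgeR adjusted p = 8.7e-11) and 1.19-fold in SurvNESmut-GFP (log2 0.25 ± 0.09, edgeR adjusted p = 0.036). The second call was lost with DESeq2 (adjusted p = 0.097), without either untreated SurvNESmut-GFP library (log2 0.23 and 0.28, edgeR adjusted p = 0.18 and 0.11) and without exposed library b (log2 0.15, edgeR adjusted p = 0.22). The difference of the TMZ effects was -1.60 ± 0.13 (edgeR adjusted p = 1.6e-07). SurvNESmut-GFP stood 2.15-fold above Surv-GFP without TMZ (edgeR adjusted p = 8.4e-08) and 1.41-fold below it with TMZ (edgeR adjusted p = 7.5e-05).

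CXCL3 (GRO-gamma) was expressed at a far lower level. It had 25 and 24 counts in untreated Surv-GFP, 229 and 174 upon TMZ, 37 and 45 in untreated SurvNESmut-GFP and 29 and 41 in exposed SurvNESmut-GFP. Only the exposed Surv-GFP libraries, at 12.2 and 9.98 CPM, stood apart from the rest, which ranged from 1.32 to 2.58 CPM. The rise in Surv-GFP was 8.28-fold (log2 3.05 ± 0.21, edgeR adjusted p = 2.8e-09). In SurvNESmut-GFP the log2 change was -0.08 (95% interval -0.64 to 0.47, edgeR adjusted p = 0.83), and these groups overlapped. The difference of the effects was -3.13 ± 0.35 (edgeR adjusted p = 3.8e-06). Without TMZ CXCL3 was 1.68-fold higher in SurvNESmut-GFP (log2 0.75 ± 0.28, edgeR adjusted p = 0.031). This call was lost with DESeq2 (log2 0.72, adjusted p = 0.067), without either untreated Surv-GFP library (log2 0.76 without a and 0.73 without b) and without untreated SurvNESmut-GFP library b (log2 0.58). With TMZ it was 5.23-fold lower in SurvNESmut-GFP (edgeR adjusted p = 1.5e-08).

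CXCL2 (GRO-beta) and CXCL5 (ENA-78) were nearly or entirely without counts, although both promoters held the kappaB letters shown above. CXCL2 had a single count, in library a of exposed SurvNESmut-GFP, and CXCL5 had 0 counts in all 8 libraries, so neither was tested. Parts of the CXCL1, CXCL2 and CXCL3 transcripts are identical: of all windows of 50 bases, 4.81% in CXCL1, 12.5% in CXCL2 and 6.01% in CXCL3 also occurred in another gene of the trio (GENCODE v29). Reads from those windows could be lost or moved between the 3 genes, which was not tested, and most of each transcript is unique. RPL21, a ribosomal protein gene that every cell uses, also stood at 0 counts in every library, so a listed 0 does not by itself show that a gene was silent. No window of CXCL8, CCL2, CCL20 or CXCL12 was shared with another gene, and 1.12% of those of CXCL5 were.

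CCL20 (MIP-3-alpha) resembled CXCL3. It had 14 and 16 counts in untreated Surv-GFP and 94 and 81 upon TMZ, which is 0.758 and 0.883 CPM against 5.02 and 4.65 CPM. SurvNESmut-GFP had 20 and 22 counts without and 13 and 21 counts with TMZ. Again only the exposed Surv-GFP libraries stood apart, and the SurvNESmut-GFP groups overlapped. The rise in Surv-GFP was 5.86-fold (log2 2.55 ± 0.26, edgeR adjusted p = 2.6e-07), while in SurvNESmut-GFP the log2 change was -0.16 (95% interval -0.87 to 0.55, edgeR adjusted p = 0.74). The difference was -2.71 ± 0.43 (edgeR adjusted p = 0.00013). Between the untreated clones the log2 difference was 0.49 (95% interval -0.24 to 1.21, edgeR adjusted p = 0.23), and with TMZ CCL20 was 4.67-fold lower in SurvNESmut-GFP (edgeR adjusted p = 6.8e-07).

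**Figure D2:**
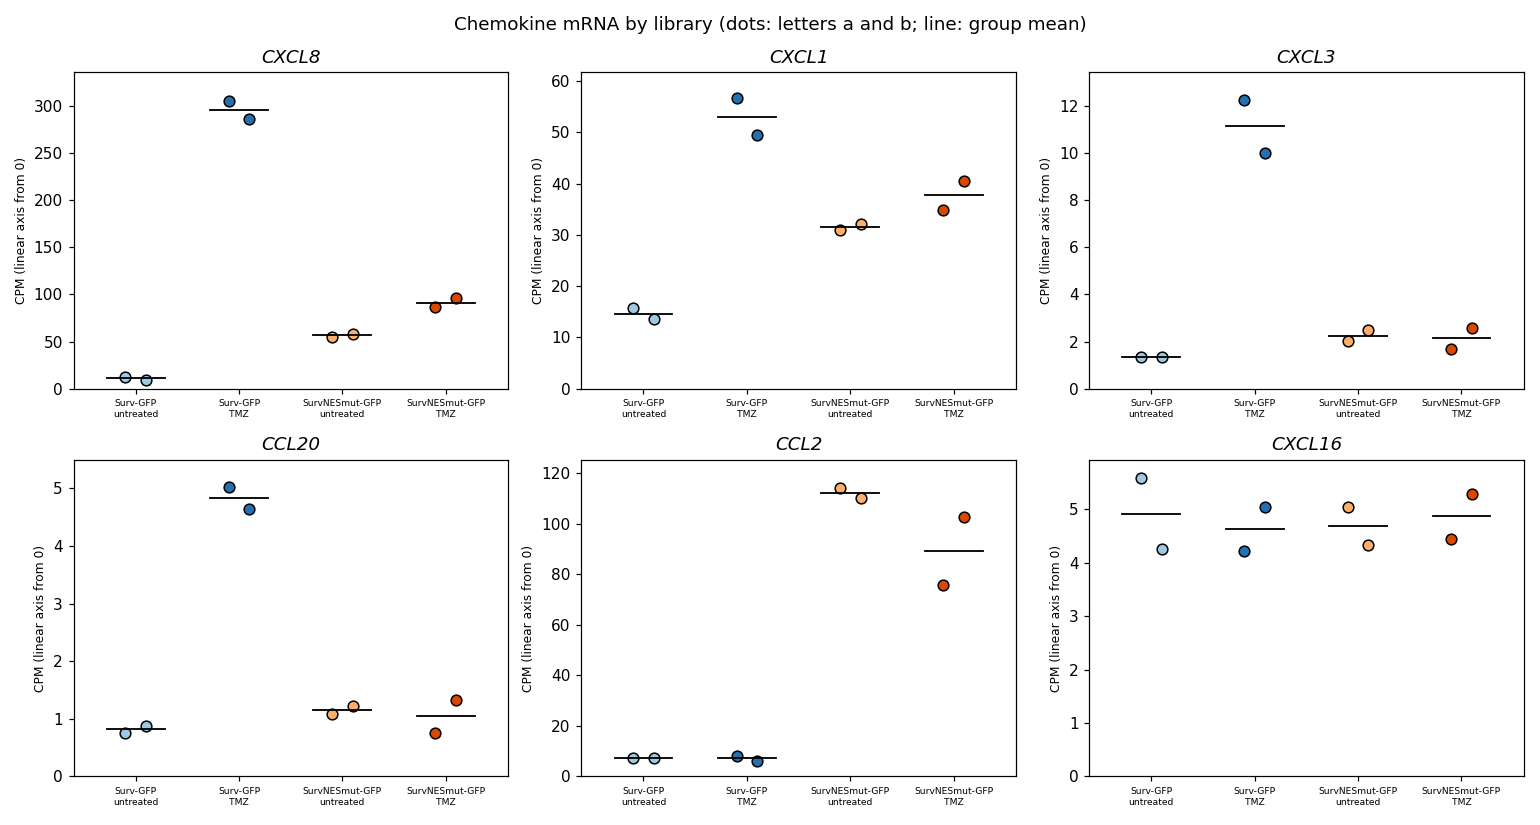
CPM of the 6 tested chemokine genes in each library (dots, letters a and b; lines, group means; linear axes from 0) in the 4 groups. CXCL8, CXCL1, CXCL3 and CCL20 are highest in exposed Surv-GFP, CCL2 lies between 75.7 and 114 CPM in SurvNESmut-GFP and between 6.14 and 8.29 CPM in Surv-GFP, and CXCL16 lies between 4.22 and 5.58 CPM in all libraries.

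CCL2 (MCP-1) differed between the clones by far more than upon TMZ. Surv-GFP had 136 and 136 counts without and 155 and 107 counts with TMZ. SurvNESmut-GFP had 2104 and 1986 counts without and 1296 and 1632 counts with TMZ. The clones were far apart and the Surv-GFP groups overlapped. CCL2 was 15.1-fold higher in untreated SurvNESmut-GFP (log2 3.91 ± 0.14, edgeR adjusted p = 4.7e-13) and 12.3-fold higher in exposed SurvNESmut-GFP (log2 3.62 ± 0.14, edgeR adjusted p = 2e-12). Upon TMZ the log2 change was -0.04 in Surv-GFP (95% interval -0.48 to 0.40, edgeR adjusted p = 0.89), and in SurvNESmut-GFP CCL2 fell by 0.33 ± 0.10 on the log2 scale (edgeR adjusted p = 0.014). That fall was not called with DESeq2 (adjusted p = 0.23), with a robust prior in edgeR (adjusted p = 0.13), without either untreated library (log2 -0.31 and -0.36) or without exposed library a (log2 -0.12). The difference of the TMZ effects was -0.29 (95% interval -0.78 to 0.19, edgeR adjusted p = 0.34), and without exposed SurvNESmut-GFP library b it was called (log2 -0.53, edgeR adjusted p = 0.0057).

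Of a list of 6 fibroblast and pericyte markers, all with counts in these cells, 3 were higher in untreated SurvNESmut-GFP like CCL2, namely COL1A2, COL1A1 and DCN (log2 7.33, 2.75 and 1.24, edgeR adjusted p = 1.3e-15, 7.5e-13 and 1.7e-06). LUM was lower (log2 -0.66, edgeR adjusted p = 1.3e-05), and PDGFRB and RGS5 were not called (log2 0.19 and -0.27, edgeR adjusted p = 0.22 and 0.18). The summed level of the 6 was 72.1 to 78.7 CPM in untreated and 48.6 to 49.5 CPM in exposed Surv-GFP, against 594 to 600 CPM in untreated and 368 to 454 CPM in exposed SurvNESmut-GFP. Most of the sum in SurvNESmut-GFP came from COL1A2, a chain of type I collagen, with 497 ± 3.07 CPM untreated. In Surv-GFP the sum was lower with than without TMZ. Most of it there came from LUM, with 44.0 ± 3.41 CPM untreated and 27.5 ± 0.501 CPM exposed. Upon TMZ COL1A2 was, like CCL2, not called in Surv-GFP (log2 0.38, edgeR adjusted p = 0.24). COL1A2 also fell in SurvNESmut-GFP (log2 -0.59, edgeR adjusted p = 5.4e-05). COL1A1 and DCN, unlike CCL2, fell in Surv-GFP (log2 -0.81 and -1.10, edgeR adjusted p = 0.00026 and 0.0002). The part of these genes' source in the CCL2 result was not tested.

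CXCL16 was called in none of the 5 comparisons. Its counts were 103 and 77 in untreated Surv-GFP, 79 and 88 upon TMZ, 93 and 78 in untreated SurvNESmut-GFP and 76 and 84 in exposed SurvNESmut-GFP. All 4 groups overlapped, and the log2 changes ran from -0.09 to 0.14 over the 5 comparisons with edgeR adjusted p between 0.7 and 0.86. The 95% interval of the TMZ effect was -0.48 to 0.30 in Surv-GFP and -0.34 to 0.44 in SurvNESmut-GFP. Of its exon bases 3.04% are overlapped by MED11 on the opposite strand. CXCL12, a ligand produced by many stromal cells, had 0 counts in all 8 libraries, which allows up to 0.189 CPM in the shallowest of them.

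**Figure D3:**
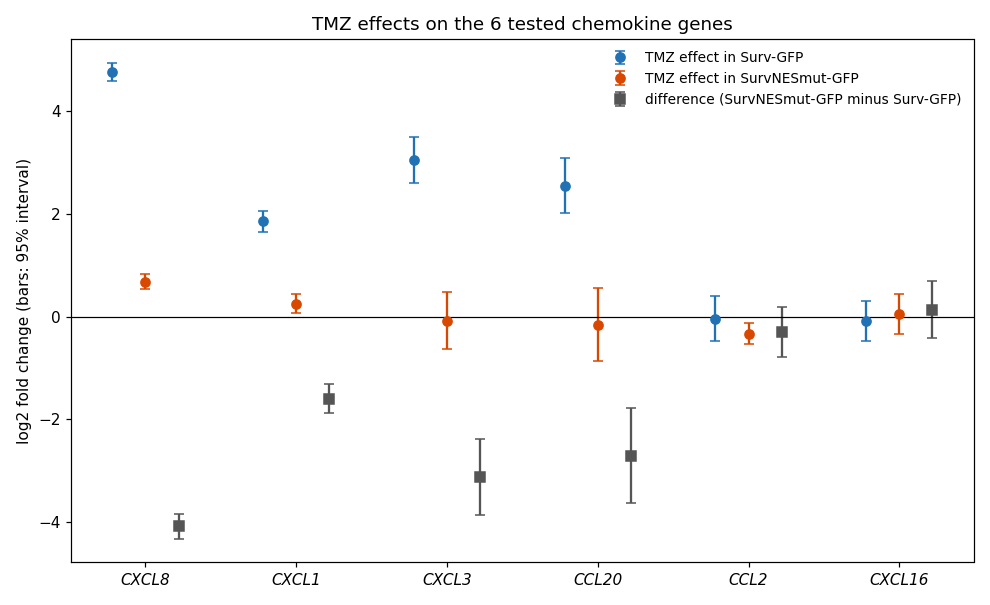
Log2 fold changes upon TMZ with 95% intervals for the 6 tested chemokine genes in Surv-GFP (blue), in SurvNESmut-GFP (orange) and their difference (grey squares). CXCL8 has the largest effect in Surv-GFP (4.77) and the largest difference (-4.08), and the intervals of CXCL16 include 0 throughout.

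The make-up of the chemokine mRNA pool differed between the groups. Of chemokine ligands 48 genes were listed, of which 32 had 0 counts in every library and 16 had at least 1. Their summed level was 74.8 ± 5.49 CPM in untreated Surv-GFP, 440 ± 20.6 CPM in exposed Surv-GFP, 217 ± 0.379 CPM in untreated SurvNESmut-GFP and 235 ± 32.9 CPM in exposed SurvNESmut-GFP. The pool thus grew upon TMZ in Surv-GFP by more than the spread of its libraries, whereas the SurvNESmut-GFP groups overlapped (216 to 217 against 212 to 258 CPM). Shares are of counts and not corrected for gene length. CXCL8 made up 14.4% ± 1.18 of the chemokine counts in untreated Surv-GFP and 67.1% ± 0.0891 upon TMZ. In SurvNESmut-GFP its share was 26.3% ± 1.11 without and 39.1% ± 2.38 with TMZ. The share of CCL2 was 51.8% ± 1.13 in untreated and 37.8% ± 2.86 in exposed SurvNESmut-GFP, against 9.97% ± 0.859 and 1.63% ± 0.268 in Surv-GFP. CXCL1 held a steadier share, from 12.0% ± 0.603 in exposed to 19.6% ± 0.635 in untreated Surv-GFP, with 14.6% ± 0.366 and 16.1% ± 0.580 in SurvNESmut-GFP.

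**Figure D4:**
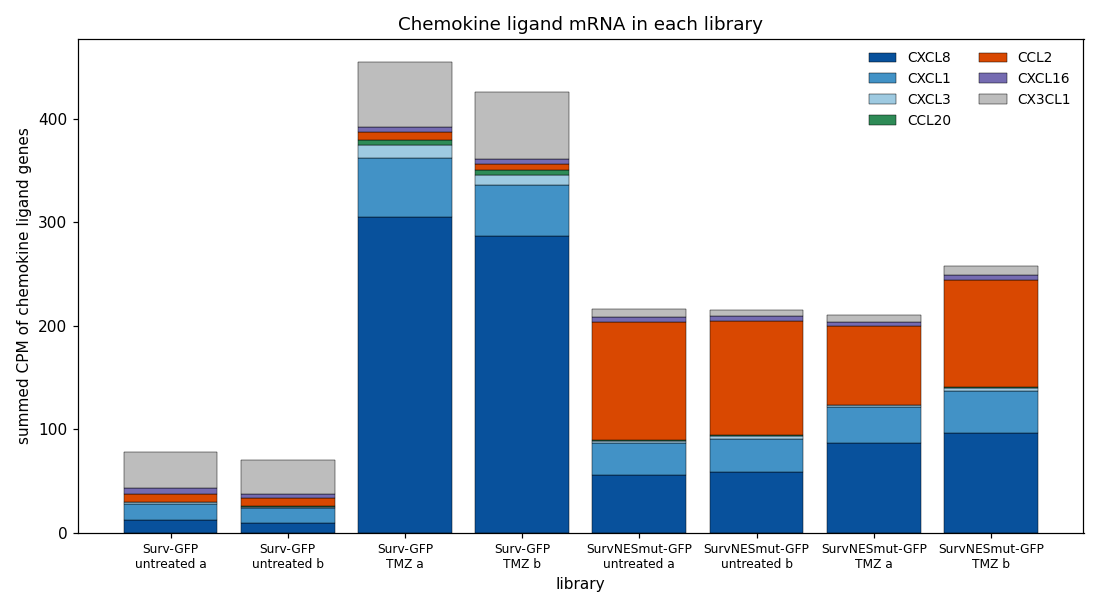
Summed CPM of the chemokine ligand genes in each library, stacked by the 7 tested ligands, for the 4 groups with letters a and b. The exposed Surv-GFP libraries reach 426 and 455 CPM with CXCL8 as the main part, and CCL2 is the main part in untreated SurvNESmut-GFP.

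Levels of different genes were compared per kilobase of exon (GENCODE v29), taking the combined exons of all annotated transcripts of a gene. The expressed mRNA can be shorter, by an amount that differs between genes and was not measured. The orders and overlaps below therefore hold for this length only. In untreated Surv-GFP the order was CXCL1 (11.3 CPM per kb), CXCL8 (4.77), CCL2 (3.74), CXCL16 (1.76), CXCL3 (0.604) and CCL20 (0.515), and no neighbouring ranges of the libraries overlapped. In exposed Surv-GFP CXCL8 led with 130 CPM per kb, followed by CXCL1 with 41.0. CXCL3 (5.01), CCL2 (3.63) and CCL20 (3.03) came next, and the ranges of CCL2 and CCL20 overlapped. CXCL16 was last with 1.66. In SurvNESmut-GFP CCL2 led without TMZ with 56.5 CPM per kb, ahead of CXCL8 (25.0) and CXCL1 (24.4), whose ranges overlapped. With TMZ CCL2 (45.0) and CXCL8 (40.2) overlapped at the top of that clone, CXCL1 followed with 29.1, and CXCL16, CXCL3 and CCL20 stayed at or under 1.89.

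Of the other 39 chemokine ligand genes only CX3CL1 was tested. CX3CL1 (fractalkine) is, like CXCL16, a membrane-anchored chemokine released by ADAM proteases. It had 651 and 604 counts in untreated Surv-GFP, 1173 and 1117 upon TMZ, 135 and 117 in untreated SurvNESmut-GFP and 113 and 128 in exposed SurvNESmut-GFP. It made up 45.9% ± 1.53 of the chemokine counts in untreated Surv-GFP. CX3CL1 rose 1.85-fold upon TMZ in Surv-GFP (log2 0.89 ± 0.07, edgeR adjusted p = 2.3e-08), while the log2 change in SurvNESmut-GFP was 0.08 (edgeR adjusted p = 0.67). The difference was -0.80 ± 0.15 (edgeR adjusted p = 0.00053). Opposite to CCL2, it was 4.96-fold lower in SurvNESmut-GFP without TMZ and 8.66-fold lower with TMZ (edgeR adjusted p = 5.6e-12 and 9e-14). CCL7 (MCP-3), a gene neighbouring CCL2, had 0 counts in all Surv-GFP libraries and 1 to 3 in each SurvNESmut-GFP library.

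The receptors through which these ligands signal were nearly without counts in these libraries, which does not by itself show that they were silent. The 27 chemokine receptor symbols listed include DARC, CCBP2, CXCR7 and CCRL1, which are older names of ACKR1, ACKR2, ACKR3 and ACKR4. All 23 distinct receptors were found among the counted genes, and 14 of these had 0 counts in all libraries, among them CXCR1, CCR2 and CXCR4. CXCR2 had 1 count in all 8 libraries together, CXCR6 also 1, CCR6 between 0 and 4 and ACKR3 between 0 and 9 per library. Among the 3 receptors tested, ACKR1, an atypical receptor that binds many chemokines without signalling through G proteins, fell by 0.94 ± 0.13 on the log2 scale in Surv-GFP and by 1.24 ± 0.18 in SurvNESmut-GFP (edgeR adjusted p = 1e-05 and 3.5e-05). Its difference of effects was -0.30 (edgeR adjusted p = 0.31). CCR1, a receptor for several CC chemokines, had 59 and 57 counts in untreated Surv-GFP, 9 and 8 upon TMZ and 1 to 3 in each SurvNESmut-GFP library. It fell by 2.73 ± 0.30 on the log2 scale in Surv-GFP (edgeR adjusted p = 8.1e-07). CCR10, which binds CCL27 and CCL28, fell by 1.08 ± 0.25 in Surv-GFP (edgeR adjusted p = 0.0014), and the log2 change in SurvNESmut-GFP was 0.37 (edgeR adjusted p = 0.28). The exons of CCR10 are partly overlapped by CNTNAP1 and the antisense gene AC100793.2 on the opposite strand (14.5% and 16.8% of their bases).

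Related genes were read from fixed lists. Of 28 genes of NF-kappaB, C/EBP and AP-1 signalling, all tested, 20 rose and 5 fell upon TMZ in Surv-GFP (median log2 change 0.51), and 11 rose and 4 fell in SurvNESmut-GFP (median 0.07). These are 71.4% and 17.9% of the list in Surv-GFP, beside 30.1% and 28.9% of all genes, and 39.3% and 14.3% in SurvNESmut-GFP, beside 18.6% and 19.1%. The list holds inhibitors of NF-kappaB beside activators, so its counts and medians do not give a direction of signalling. The difference of effects was called lower for 15 and higher for 3 (53.6% and 10.7%, beside 20.2% and 16.6% of all genes), with a median of -0.34 beside 0.00 for all genes. The smallest p in that difference belonged to FOSL1, an AP-1 subunit, with -1.34 ± 0.07, to NFKB1, which encodes p105/p50, with -1.15 ± 0.07, and to RELB, an NF-kappaB subunit of the non-canonical pathway, with -1.71 ± 0.14 (edgeR adjusted p = 1.2e-09, 5.4e-09 and 1.3e-07). RELB was at 10.3 ± 0.485 CPM in untreated and 43.8 ± 3.52 CPM in exposed Surv-GFP, and at 26.4 ± 0.572 and 34.3 ± 4.53 CPM in SurvNESmut-GFP, which is the order of groups seen for CXCL8. FOSL1 and NFKB1 had other orders. Without and with TMZ FOSL1 was at 97.1 ± 3.11 and 271 ± 8.09 CPM in Surv-GFP and at 339 ± 9.47 and 373 ± 13.2 CPM in SurvNESmut-GFP. NFKB1 was at 76.8 ± 0.259 and 146 ± 4.11 CPM in Surv-GFP and at 121 ± 4.32 and 103 ± 2.41 CPM in SurvNESmut-GFP. NFKB1 rose by 0.92 in Surv-GFP and fell by 0.23 in SurvNESmut-GFP (edgeR adjusted p = 1.8e-10 and 0.0017).

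Of the other secreted cytokines 12 of 16 were tested, of which 8 rose and 2 fell in Surv-GFP (median log2 change 2.83) and 6 rose and 1 fell in SurvNESmut-GFP (median 0.38). In Surv-GFP this is 66.7% higher and 16.7% lower, beside 30.1% and 28.9% of all genes, and in SurvNESmut-GFP 50.0% and 8.33%, beside 18.6% and 19.1%. The difference was lower for 5 and higher for 1 (41.7% and 8.33%, beside 20.2% and 16.6% of all genes) with a median of -1.32, and both this median and that in Surv-GFP were the same with IL24 at its bound. LIF and IL11, cytokines of the IL-6 family, had differences of -3.61 ± 0.08 and -5.23 ± 0.14 (edgeR adjusted p = 1.1e-13 and 3.9e-13). IL24, a cytokine of the IL-10 family, had 0 counts in untreated Surv-GFP, 91 and 74 upon TMZ, 16 and 17 in untreated and 23 and 16 in exposed SurvNESmut-GFP. Against the floor of 3 counts per library it was at least 27.8-fold higher upon TMZ in Surv-GFP.

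Of 16 genes for shedding, cleavage or retention of chemokines 13 were tested, with 6 higher and 4 lower upon TMZ in Surv-GFP and 6 higher and 3 lower in SurvNESmut-GFP. The share called lower was near that of all genes in both clones (30.8% beside 28.9%, and 23.1% beside 19.1%), and 46.2% were called higher in each, beside 30.1% and 18.6%. Without DPP4, which had at most 1 count per Surv-GFP library, the median log2 change in Surv-GFP was 0.13, and it was 0.14 over all 13 in SurvNESmut-GFP. The difference was lower for 5 and higher for 5 (38.5% each, beside 20.2% and 16.6% of all genes, median 0.13 without DPP4). ADAM17, the sheddase of TNF, which can also release CX3CL1, and the heparan sulfate proteoglycans SDC4 and GPC1 had the smallest p there, with differences of -0.80 ± 0.07, -0.74 ± 0.07 and -0.66 ± 0.07 (edgeR adjusted p = 4.9e-07, 1e-06 and 1.5e-06). Of 9 genes for turnover of AU-rich mRNAs 3 rose and 3 fell in Surv-GFP (median -0.07), 1 rose and 3 fell in SurvNESmut-GFP (median -0.02). In Surv-GFP the shares of 33.3% in each direction were near those of all genes (30.1% and 28.9%), and in SurvNESmut-GFP they were 11.1% and 33.3%, beside 18.6% and 19.1%. The difference was lower for 3 and higher for 3 (33.3% each, beside 20.2% and 16.6%, median 0.02). MAPKAPK2, the kinase that inactivates the decay factor ZFP36, had a difference of -0.79 ± 0.07, the decay factor ZFP36L2 of 0.40 ± 0.07 and its paralogue ZFP36L1 of -0.46 ± 0.09 (edgeR adjusted p = 3.6e-07, 0.00029 and 0.0012).

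**Figure D5:**
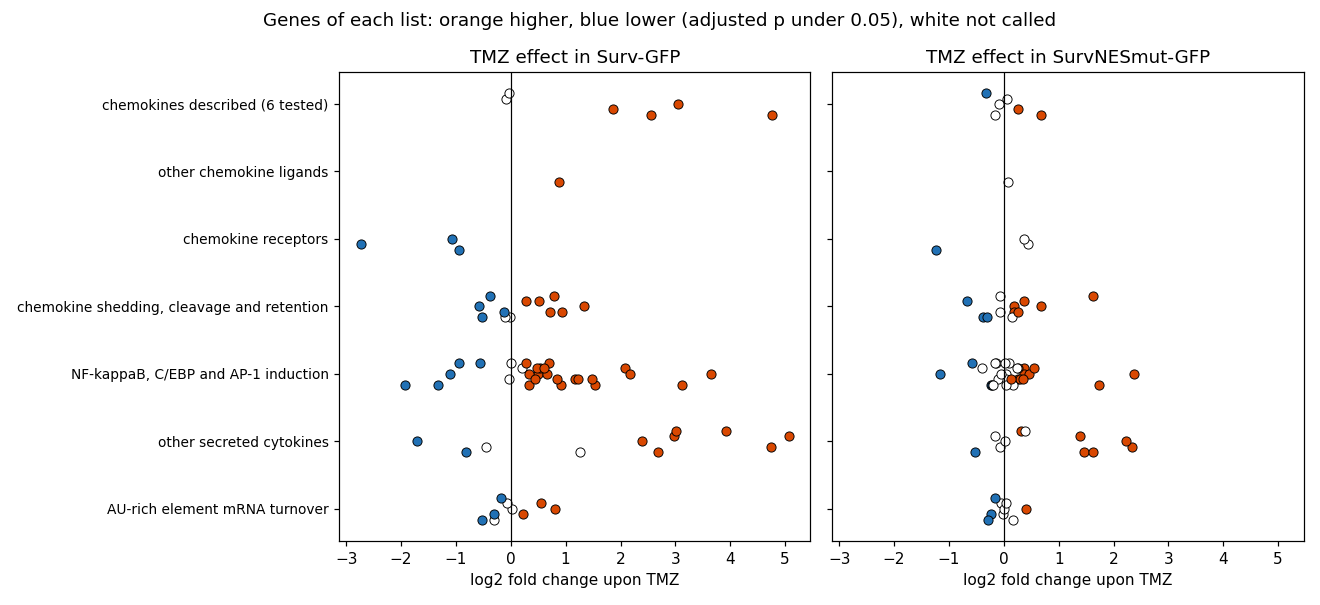
Log2 fold changes upon TMZ of the tested genes of each list in Surv-GFP (left) and SurvNESmut-GFP (right), with called genes in orange (higher) or blue (lower) and the others in white, at an adjusted p under 0.05. DPP4 and IL24, each with 0 counts in a group, are left out, and the chemokines reach 4.77 on the left and 0.68 on the right.

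Among the chemokines CXCL8 and CXCL1 had the most similar profiles after CXCL3 and CCL20, with Pearson's r of 0.988 and 0.991 over the log2 CPM of the 8 libraries, which fall into 4 groups. CCL2 had an r between -0.43 and 0.21 with each of the other 5. Of 11170 genes with a mean of at least 5 CPM, FLCN (folliculin), CREM (a cAMP-responsive transcription factor) and TRIM8 (a ubiquitin ligase) were most like CXCL8, with r of 0.994, 0.993 and 0.993. Their rise upon TMZ in Surv-GFP was smaller, with log2 changes of 1.19, 1.21 and 1.19. Most like CCL2 were CRLF3 (r = 0.999), TGM2 (r = 0.998), which encodes transglutaminase 2, and CLDN11 (r = 0.997), a claudin. TGM2 was at 280 and 259 CPM in untreated and exposed Surv-GFP and at 1039 and 898 CPM in SurvNESmut-GFP. Profiles of this kind were common, with 179 genes at r above 0.95 for CXCL8 and 746 for CCL2.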

How the data were processed

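Total RNA of 8 libraries of LN229 clones was sequenced on the Illumina platform. The deposited table holds raw read counts per gene, made by the authors. Their processing notes name STAR 2.5.0b, Cufflinks 2.2.1 and edgeR, without the roles of these tools, and no source used here gives the genome build, the annotation or strandedness. The rows for reads without a gene (11.2 to 14.3%) and for ambiguous reads (1.19 to 1.28%) were left out. A further 5 tables of the authors' own comparisons (log2 fold changes, mean log2 CPM, F, p and FDR) were not used.

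Counts were analysed with edgeR 4.0.16 (R 4.3.3) by the quasi-likelihood F test, with filterByExpr, TMM factors and 1 coefficient per group over all 8 libraries. The comparisons were 5 in number: TMZ in each clone, their difference, and the clones without and with TMZ. Alternatives included DESeq2 1.42.0, other scalings and filters, a replicate block and leaving out each library. Named were all 9 chemokines, every other ligand and receptor that was tested, the 3 genes with the smallest p for the difference of effects in each further list, and the 3 genes most like CXCL8 and CCL2. The 6 fibroblast and pericyte markers, the glial and glioma markers, BIRC5, CCL7, DPP4, RPL21 and the receptors under the filter were named after their values were seen. The chemokines and lists were chosen with earlier results of these data known. Promoters are from RefSeq, GRCh38.p14.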

Additional observations from a re-analysis of the deposited data

Results flagged for a closer look

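The TMZ effect differed between the clones for 4 chemokine genes, by the test of the difference itself in edgeR's quasi-likelihood fit (SurvNESmut-GFP minus Surv-GFP, log2 scale, all 8 libraries). The difference was -4.08 for CXCL8, -1.60 for CXCL1, -3.13 for CXCL3 and -2.71 for CCL20 (edgeR adjusted p = 3.9e-13, 1.6e-07, 3.8e-06 and 0.00013). In each of the 4 both exposed Surv-GFP libraries lay above both untreated ones and above all SurvNESmut-GFP libraries. The clone and the construct cannot be told apart.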

How the results depend on the processing

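Of 504 member values under alternatives, 477 kept direction and side of the threshold. The cause of the changes was not tested. In SurvNESmut-GFP upon TMZ DESeq2 called 1 chemokine higher and 0 lower, a robust prior called 0 lower, and leaving out a library gave 1 to 2 higher and 0 to 1 lower. There CXCL1 was at 0.25 (log2) with DESeq2 (adjusted p = 0.097; leave-out range 0.15 to 0.36) and CCL2 at -0.34 with DESeq2 (adjusted p = 0.23) and -0.33 with a robust prior (adjusted p = 0.13; leave-out range -0.56 to -0.12). CXCL3 between the untreated clones was at 0.72 with DESeq2 (adjusted p = 0.067; leave-out range 0.58 to 0.90). The difference of TMZ effects for CCL2 ranged from -0.53 to -0.055 without single libraries. Values that were never called changed sign without single libraries: CXCL16 (-0.27 to 0.12 upon TMZ in Surv-GFP, -0.074 to 0.18 in SurvNESmut-GFP, -0.076 to 0.32 in the difference, -0.25 to 0.14 and -0.093 to 0.20 between the clones without and with TMZ), CCL2 upon TMZ in Surv-GFP (-0.27 to 0.12), and CXCL3 (-0.40 to 0.20) and CCL20 (-0.59 to 0.20) upon TMZ in SurvNESmut-GFP. A fit that leaves a group with 1 library assumes that it varies like the others. The fit on only the libraries compared gives no value for the difference of effects, which needs all 8.

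The letters did not pair the libraries (r of the a minus b deviations -0.067 to 0.083 between groups). With the letter as a replicate block, CXCL8 was at 4.77 upon TMZ in Surv-GFP (edgeR adjusted p = 3.7e-16), and no call of a chemokine changed. Depth limits CXCL2, CXCL5 and CXCL12, which stood at or near 0 counts.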
